A study of Bos taurus with 12 samples.

Results

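Enzymes that remove reactive oxygen species, and the thiol proteins that recycle or regulate them, were followed in the endometrium (the lining of the uterus) of Japanese-Black cows in summer and in autumn. The list held 37 genes in 8 enzyme classes. A probe was matched to 28 of them, 1 probe per gene, through the gene name, sequence name or description in the scanner files. All 28 probes were well above background on every array of at least 1 group, and they stood among 5017 genes with a symbol and a usable probe. No probe was matched to SOD3, GPX2, SRXN1, TXNIP, GCLC, GSR, GSTA1, GSTO1 or MT1E, which are not analysed here.

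Biopsies were taken at day 15 of the cycle, in September for summer and in November for autumn, across 2 years. Each season covers both uterine horns: the one next to the ovary with the corpus luteum, the source of progesterone (CL side), and the one across from it (non-CL side). That gave 4 groups of 3 arrays: CL side in summer, non-CL side in summer, CL side in autumn and non-CL side in autumn. All groups share the breed, the day of the cycle and the labelling of 400 ng of total RNA with the dye Cy3 for a 1-colour Agilent bovine array. The labels give no treatment, age, cow or year for a sample, and a biopsy mixes epithelium, stroma, vessels and blood cells. They do not say that replicates came from separate cows, so p-values here measure only the spread between these samples.

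Superoxide dismutases turn superoxide into hydrogen peroxide, which catalase, glutathione peroxidases and peroxiredoxins then remove. Glutathione and thioredoxin supply electrons to the glutathione peroxidases and peroxiredoxins and are themselves recycled with NADPH. Many of these genes are induced by the transcription factor NRF2 when its inhibitor KEAP1 is oxidised, and metallothioneins, small cysteine-rich proteins, bind zinc and copper and also react with oxidants. The luteal-phase endometrium is known to express most of these systems.

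The probes for the metallothioneins MT1A and MT2A are shown because they differ by a single base and cannot be read as separate genes. The name field of the MT1A probe lists both genes. Both are 60 bases long, written 5′ to 3′ as deposited, and the capital marks the only base that differs over the 59 bases they share.
MT1A: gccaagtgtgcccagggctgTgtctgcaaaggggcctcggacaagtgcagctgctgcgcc
MT2A: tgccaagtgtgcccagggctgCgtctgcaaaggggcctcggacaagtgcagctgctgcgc
In the open reading frame, 6 of the 20 codons of the MT1A probe encode cysteine, the residue with which these proteins hold metal. The longest run that either probe shared exactly with any of the other 15206 probes was 12 bases. Among all other pairs of the 28 genes, the closest stretch was 12 bases with 1 mismatch.

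The arrays were alike in brightness except for 1. CL-side summer replicate 2 is called the dim array: its 75th percentile of processed signal was 2007, against 3516 to 4418 elsewhere, and it correlated with the others at a median of 0.928, against 0.972 or more for any other pair. Per array, 79.2% to 84.1% of probes exceeded background clearly. The 6 summer arrays and 2 of the autumn arrays (replicate 1 of each horn) shared a slide, and the other 4 autumn arrays lay on another, so only the first slide holds both seasons. Values from the first slide alone therefore rest on replicate 1 as the only autumn array of each horn, and the dim array is among its summer arrays. Of the markers with a probe, 13 of 13 for epithelium and 11 of 11 for stroma were measured. DSG1 of squamous epithelium and the hemoglobin chain HBA were well above background on 0 of 12 arrays.

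All values below are log2 signals relative to the array's 75th percentile, so a value of 0 equals that percentile and levels of different probes are not compared. Of the 28 genes, 27 were well above background on all 12 arrays. The exception was GPX3, on 10 of 12. The dim array gave the highest value of 11 genes (SOD1, SOD2, GPX3, PRDX5, PRDX6, MSRA, GCLM, GSTP1, SQSTM1, MT1A and MT2A) and the lowest of 4 (PRDX3, TXNRD1, NFE2L2 and NQO1), hence an extreme value for 15 of 28. Over all probes measured on every array it was the highest for 30.3%, the lowest for 27.7% and hence extreme for 58.0%. Its cell-type markers stood apart too, as the mean log2 difference of a list from the 12-array mean. That was 1.14 for epithelium (−0.46 to 0.18 on the other arrays), 1.93 for squamous epithelium (−0.88 to 1.13), 1.18 for neutrophils and mast cells (−0.78 to 0.75) and −1.38 for stroma (−0.42 to 0.86). It also lay outside the others for ciliated epithelium at 1.22 (−1.37 to 0.82), red blood cells at 0.97 (−0.50 to 0.15), and T, NK and B cells at 0.82 (−0.31 to 0.32). The same held for endothelium at 0.38 (−0.24 to 0.24) and for macrophages and dendritic cells at −0.77 (−0.42 to 0.58). For smooth muscle it was 2.05, inside the −1.62 to 2.22 of the others. The part of these cells in the values of the dim array was not tested. Results that rest on it are therefore given with and without it.

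**Figure D1:**
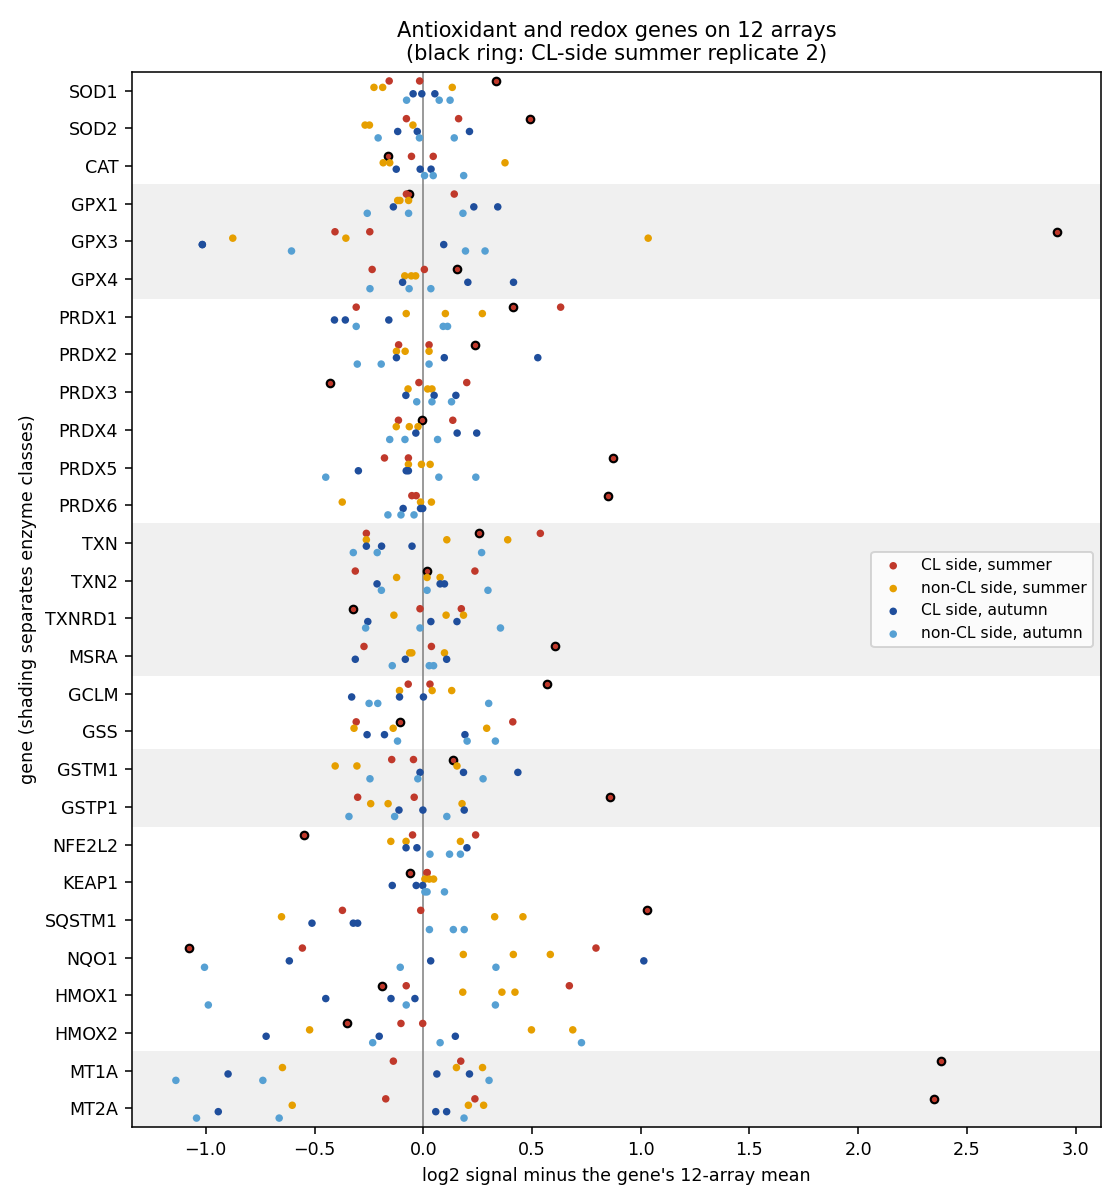
Log2 signal of each of the 28 genes on each of the 12 arrays, as the difference from the gene's 12-array mean (x axis); colours give the group and a black ring marks the dim array. MT1A, MT2A and GPX3 are spread most widely and KEAP1 least. The ringed point is the highest of 11 genes and the lowest of 4, beside 30.3% and 27.7% of all probes.

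No gene of the list passed the limma threshold, an adjusted p under 0.05 with Benjamini-Hochberg adjustment over all kept probes, in any comparison, and neither did any other probe. On the CL side, 17 of the 28 genes were higher in summer and 11 lower, beside 53% of all probes higher. Their median log2 change, summer minus autumn, was 0.092, against 0.023 over all probes. PRDX1 was the only gene with an unadjusted limma p under 0.05 there, beside 9.92% of the 12381 probes tested (0% by the adjusted p). The changes of 21 of the 28 genes had a 95% interval inside −1 to 1, a 2-fold change either way, as did 63% of all probes. None of the 28 had seasons that did not overlap, beside 7.97% of probes with summer higher and 5.02% with summer lower. Without the dim array the median was 0.041, 17 genes were above 0, and 0 of 28 had an unadjusted limma p under 0.05.

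On the non-CL side the genes split evenly, 14 higher and 14 lower in summer (49.9% of all probes were higher), with a median change of 0.0032. There 0 of 28 had an unadjusted limma p under 0.05, beside 1.12% of all probes (0% by the adjusted p). The 95% interval lay within −1 to 1 for 23 of the 28 genes and for 74.3% of all probes. Again 0 genes had seasons that did not overlap, beside 2.62% of probes higher and 3.45% lower. With same-numbered horns averaged, 16 of 28 genes were higher in summer (52.7% of probes), and the median change was 0.044 against 0.014 over all probes. Without replicate 2 of summer, which holds the dim array, the median was 0.0064. In the fit of all arrays, 25 of 28 intervals over both horns lay within −1 to 1 (78.7% of probes). In that fit 0 genes had an unadjusted limma p under 0.05 (4.02% of probes did, 0% by the adjusted p). With the slide as a block the CL-side median was 0.030, and on the first slide alone it was 0.032. Over all settings that kept every array, the non-CL-side median ran from −0.028 to 0.022.

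**Figure D2:**
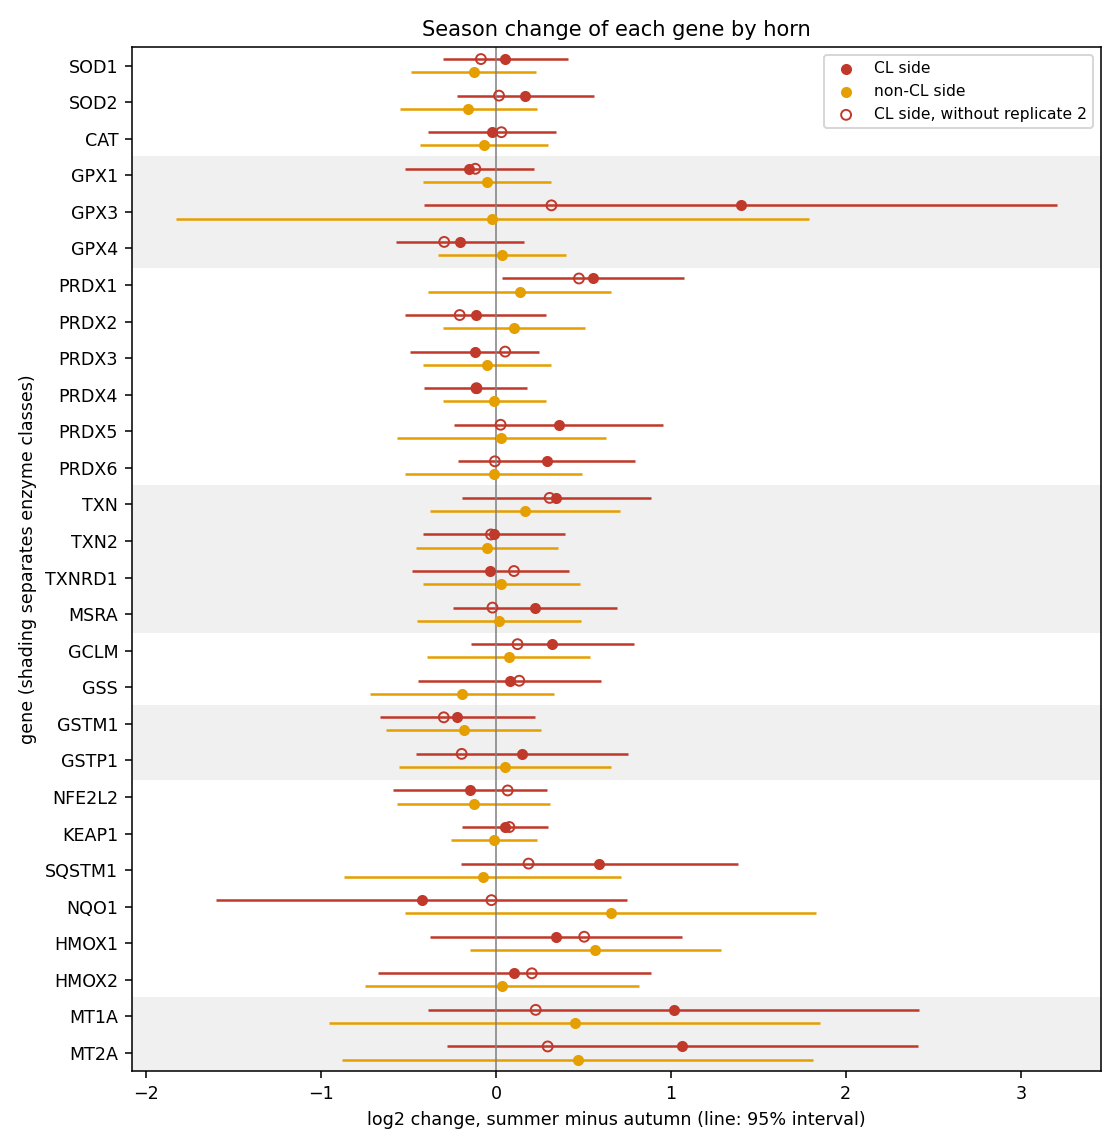
Log2 change, summer minus autumn (x axis), of each gene on the CL side (red) and the non-CL side (orange), with 95% intervals from limma; open circles give the CL-side change without the dim array. Among the intervals only that of PRDX1 on the CL side, 0.03 to 1.08, lies above 0, and the open circles of MT1A, MT2A and GPX3 lie far to the left of the filled ones.

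The superoxide dismutases and catalase differed little by season. SOD2, the manganese enzyme of mitochondria, had log2 signals of 1.14, 1.47 and 0.90 on the CL side in summer, 0.93, 0.73 and 0.71 on the non-CL side in summer, 0.95, 1.19 and 0.86 on the CL side in autumn, and 1.12, 0.77 and 0.96 on the non-CL side in autumn. In summer its lowest CL-side value lay under the highest non-CL-side value, so the horns overlapped, and the highest of all 12 values came from the dim array. The difference, CL side minus non-CL side, was 0.38 in summer (SE 0.18, 95% interval −0.02 to 0.77, limma unadjusted p 0.058, adjusted p 0.984) and 0.05 in autumn. Without the dim array the summer difference was 0.23. The fit did not pair same-numbered horns. SOD1, the copper-zinc enzyme of the cytosol, ranged from 2.04 to 2.60 over the 12 arrays. Catalase (CAT), which breaks down hydrogen peroxide in peroxisomes, ranged from 1.83 to 2.39, with season changes of −0.02 and −0.07 on the CL and non-CL sides. The former was 0.03 without the dim array. The CAT interval on the CL side, −0.39 to 0.34, lies well inside a 2-fold change either way.

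Of the glutathione peroxidases, the selenium enzymes that use glutathione to reduce peroxides, GPX1 and GPX4 were steady and GPX3 was near the detection limit. GPX3, the secreted form, had log2 signals of −6.67, −3.35 and −6.51 on the CL side in summer, −7.14, −5.23 and −6.62 on the non-CL side in summer, −7.28, −6.17 and −7.28 on the CL side in autumn, and −6.07, −5.98 and −6.87 on the non-CL side in autumn. The values of −7.28 are the floor set under all signals, and the dim array alone stood far above the rest. The CL-side season change of 1.40 (SE 0.82, limma unadjusted p 0.116, adjusted p 0.528) became 0.32 without the dim array, 0.67 with another background correction (normexp) and 0.18 in the authors' deposited log2 values. With the slide as a block it was 1.47, and on the first slide alone 1.77. On that slide the only CL-side autumn array, replicate 1, lies at the floor, and CL-side summer includes the dim array.

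GPX4, which protects membranes by reducing lipid hydroperoxides, read 0.94, 1.09 and 0.70 on the CL side and 0.88, 0.85 and 0.90 on the non-CL side in summer. In autumn it read 1.14, 1.35 and 0.84 on the CL side and 0.87, 0.69 and 0.97 on the non-CL side. The horns overlapped in both seasons. Its autumn difference between the horns, 0.27 (SE 0.17, limma unadjusted p 0.139, adjusted p 1.0), was the largest of its comparisons. GPX1, the abundant intracellular form, ranged from 1.23 to 1.83, and its season changes were −0.15 on the CL side and −0.05 on the non-CL side.

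The peroxiredoxins, thiol peroxidases that are mostly recycled by thioredoxin, held the gene with the smallest p of the list. PRDX1, a cytosolic form, had log2 signals of 5.22, 5.0 and 4.28 on the CL side in summer and 4.43, 4.23 and 4.18 there in autumn. On the non-CL side it had 4.69, 4.86 and 4.51 in summer and 4.68, 4.28 and 4.70 in autumn. The first pair of CL-side summer values exceeded every autumn value of either horn, but replicate 3 lay inside the autumn range, so the groups overlapped. The CL-side change was 0.55 (SE 0.24, 95% interval 0.03 to 1.08, a fold of 1.47; limma unadjusted p 0.039, adjusted p 0.498). It was 0.47 without the dim array, 0.41 with the slide as a block and 0.40 on the first slide alone. On the non-CL side it was 0.14, and −0.01 with the slide as a block. The test of the difference between the horns gave 0.42 (SE 0.33, limma adjusted p 0.999), so a season change particular to the CL side was not shown for PRDX1.

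Markers of cell types moved in the same comparison, and their part in the PRDX1 value was not tested. On the CL side all 11 measured stroma markers were lower in summer, with a median change of −1.06 (−0.77 without the dim array). Their summed signal, in multiples of the 75th percentile, was 58.8 to 155 in CL-side summer and 164 to 195 in CL-side autumn, against 135 to 146 and 130 to 150 on the non-CL side. Of the 13 epithelial markers 10 were higher in CL-side summer, with summed signals of 43.5 to 90.2 against 39.9 to 43.8 in CL-side autumn, and 37.5 to 51.9 and 36.6 to 56.1 on the non-CL side in summer and autumn. Their median change on the CL side was 0.65, and 0.41 without the dim array. All 13 markers of T, NK and B cells were higher in CL-side summer, at summed signals of 2.48 to 4.20 against 1.65 to 3.97 in CL-side autumn, and 1.62 to 2.61 and 1.48 to 3.31 on the non-CL side. Their median change on the CL side was 0.62 (0.46 without the dim array). Of 8 neutrophil and mast cell markers 7 were higher, at 13.0 to 219 (median 16.9) against 3.54 to 9.55, and 2.89 to 9.22 and 3.11 to 5.28 on the non-CL side. Their median change on the CL side was 0.81, and 0.76 without the dim array. All 7 ciliated-cell markers were higher in summer in both horns, with medians of 1.24 on the CL side (0.76 without the dim array) and 0.70 on the non-CL side. Their summed signals were 8.2 to 13.8 in CL-side summer, 8.44 to 10.8 in non-CL-side summer, 4.34 to 9.46 in CL-side autumn and 3.83 to 12.6 in non-CL-side autumn. All 5 squamous markers kept were higher in CL-side summer, with a median of 0.87. Their summed signals were 1.06 to 12.6 there, 0.464 to 0.638 in CL-side autumn, and 0.529 to 1.33 and 0.645 to 0.883 on the non-CL side. Of 9 macrophage and dendritic cell markers, 3 were higher and 6 lower in CL-side summer, with a median of −0.36 (0.10 without the dim array). The 10 endothelial markers split evenly there, 5 higher and 5 lower. Of 5 smooth muscle markers 4 were higher in CL-side summer, with a median of 0.24 (−0.53 without the dim array). In such tissue samples, fewer cells of a type and less RNA per cell cannot be told apart.

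PRDX6, a peroxiredoxin that also acts on phospholipids, stood apart on 1 array. Its log2 signals were 3.31, 4.21 and 3.33 on the CL side and 3.40, 2.99 and 3.35 on the non-CL side in summer. In autumn they were 3.27, 3.36 and 3.35 on the CL side and 3.20, 3.26 and 3.32 on the non-CL side. Apart from the dim array at 4.21, 11 arrays lay between 2.99 and 3.40. The CL-side change of 0.29 (SE 0.23, limma adjusted p 0.627) became −0.0065 without that array. The summer difference between the horns went from 0.37 to 0.075.

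PRDX2, a cytosolic peroxiredoxin that is also abundant in red blood cells, differed little by season. Its log2 signals were 0.46, 0.67 and 0.32 on the CL side and 0.35, 0.46 and 0.31 on the non-CL side in summer. In autumn they were 0.53, 0.96 and 0.31 on the CL side and 0.24, 0.46 and 0.13 on the non-CL side. Each CL-side value exceeded the same-numbered non-CL-side value, by 0.01 to 0.50, in 6 of 6 pairs, as for 1.17% of all probes. This count was made after the values were seen. The groups overlapped, and the autumn difference was 0.33 (SE 0.18, 95% interval −0.08 to 0.73, limma unadjusted p 0.103, adjusted p 1.0). That fit did not pair same-numbered horns. Of 7 red blood cell markers with a probe, the 4 that were kept had summed signals of 0.48 to 0.52 in CL-side autumn, 0.50 to 0.59 in non-CL-side autumn, 0.55 to 0.85 in CL-side summer and 0.52 to 0.63 in non-CL-side summer. HBA was well above background on no array, and the part of red blood cells in the PRDX2 value was not tested.

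Of the remaining peroxiredoxins, PRDX3 and PRDX4 were steady outside the dim array, and PRDX5 less so. PRDX3, the mitochondrial form, ranged from 0.30 to 0.93, with its lowest value on the dim array. PRDX4, the form of the endoplasmic reticulum, ranged from 1.65 to 2.05 and had the tightest CL-side interval of the class, −0.41 to 0.18. PRDX5, found in mitochondria, peroxisomes and cytosol, ranged from 2.26 to 3.58, with 3.58 on the dim array and 2.26 to 2.95 on the others. Its CL-side change of 0.36 became 0.03 without the dim array.

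In the thioredoxin system, TXN, the cytosolic thioredoxin that reduces many peroxiredoxins, had the largest SD over the 12 arrays, 0.298. It read 2.92, 2.64 and 2.12 on the CL side and 2.12, 2.77 and 2.49 on the non-CL side in summer. In autumn it read 2.19, 2.33 and 2.12 on the CL side and 2.17, 2.06 and 2.65 on the non-CL side. The 2 highest CL-side summer values stood above all CL-side autumn values while replicate 3 equalled the lowest of them to 2 decimals. The change was 0.34 on the CL side (SE 0.24, 95% interval −0.20 to 0.89, limma adjusted p 0.593) and 0.17 on the non-CL side. TXN2, the mitochondrial thioredoxin, ranged from −0.94 to −0.33, and TXNRD1, the selenium enzyme that reduces thioredoxin with NADPH, from 0.96 to 1.64. MSRA, which repairs oxidised methionine, ranged from −0.83 to 0.09, and its CL-side change of 0.22 became −0.02 without the dim array.

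Glutathione synthesis was read through its modifier subunit and its last step. GSS, glutathione synthetase, read −1.42, −1.94 and −2.14 on the CL side and −2.15, −1.54 and −1.97 on the non-CL side in summer. In autumn it read −1.64, −2.09 and −2.01 on the CL side and −1.50, −1.95 and −1.63 on the non-CL side. No group stood apart, and the season changes were 0.08 on the CL side (0.13 without the dim array) and −0.19 on the non-CL side (limma adjusted p 0.920 and 1.0). GCLM, the modifier subunit of glutamate-cysteine ligase, the rate-limiting enzyme of the pathway, ranged from −1.81 to −0.91. Its CL-side change was 0.32 (95% interval −0.15 to 0.79) and 0.12 without the dim array.

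Of the glutathione transferases, which couple glutathione to electrophiles, GSTP1 had its highest value on the dim array and GSTM1 on CL-side autumn replicate 1. GSTP1 read 2.0, 2.90 and 1.74 on the CL side and 2.22, 1.88 and 1.80 on the non-CL side in summer. In autumn it read 2.23, 2.04 and 1.93 on the CL side and 2.15, 1.91 and 1.70 on the non-CL side. The dim array stood alone at 2.90. The CL-side change of 0.15 (SE 0.27, limma adjusted p 0.856) was −0.20 without it. GSTM1 ranged from −1.18 to −0.34, with season changes of −0.22 on the CL side (−0.30 without the dim array) and −0.18 on the non-CL side. With the slide as a block these were −0.47 and −0.44, and 0 of them passed the limma threshold.

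The NRF2 branch held both the steadiest gene and several of the most variable. NFE2L2, which encodes NRF2, ranged from 1.53 to 2.32, with the lowest value on the dim array. Its season change was −0.15 on the CL side, 0.07 without the dim array, and −0.13 on the non-CL side. KEAP1, its inhibitor, stayed between 1.41 and 1.65 on all 12 arrays. Its CL-side season interval was −0.20 to 0.30. HMOX2, the constitutive heme oxygenase, ranged from −1.55 to −0.10.

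HMOX1, the inducible heme oxygenase, which breaks heme down to biliverdin, iron and carbon monoxide, had the smallest p of the list when the horns were averaged. Its log2 signals were 3.17, 2.31 and 2.42 on the CL side and 2.68, 2.92 and 2.86 on the non-CL side in summer. In autumn they were 2.35, 2.46 and 2.05 on the CL side and 2.83, 1.51 and 2.42 on the non-CL side. Within each horn the seasons overlapped. The means of same-numbered horns were 2.93, 2.62 and 2.64 in summer and 2.59, 1.99 and 2.24 in autumn, so the lowest summer mean stood just above the highest autumn mean. PRDX6 also did not overlap, with horn means of 3.36, 3.60 and 3.34 in summer and 3.24, 3.31 and 3.33 in autumn. Its mean of 3.60 joins the dim array, at 4.21, to 2.99 in the other horn, which alone lies under every autumn mean. That made 2 of 28 genes not overlapping and higher in summer, beside 5.47% of all probes, and 0 of 28 lower, beside 5.13%.

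The HMOX1 change over both horns was 0.46 (SE 0.19, 95% interval −0.01 to 0.92, limma unadjusted p 0.054, adjusted p 0.895). With the slide as a block this change was 0.14, as on the first slide alone. Both values set the summer means against the autumn mean of replicate 1 alone, 2.59, the highest autumn mean. Slide and replicate cannot be told apart there. By horn the change was 0.34 on the CL side (0.50 without the dim array, 0.02 with the slide as a block, 0.28 on the first slide alone). It was 0.57 on the non-CL side, 0.25 with the slide as a block and −0.01 on the first slide alone.

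SQSTM1, an autophagy receptor that binds KEAP1, and NQO1, a quinone reductase and classic NRF2 target, were dim. SQSTM1 read −5.51, −4.11 and −5.15 on the CL side and −5.79, −4.68 and −4.81 on the non-CL side in summer. In autumn it read −5.46, −5.65 and −5.44 on the CL side and −5.00, −5.11 and −4.95 on the non-CL side. All CL-side autumn values lay under all non-CL-side autumn values, while in summer the horns overlapped. The autumn difference, CL side minus non-CL side, was −0.50 (SE 0.36, limma unadjusted p 0.194, adjusted p 1.0), and it was 0.13 in the authors' deposited log2 values. The CL-side season change of 0.59 became 0.19 without the dim array and 0.03 in the authors' deposited log2 values.

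NQO1 read −3.67, −5.54 and −5.02 on the CL side and −3.88, −4.28 and −4.05 on the non-CL side in summer. In autumn it read −4.43, −3.45 and −5.08 on the CL side and −4.57, −5.47 and −4.13 on the non-CL side. The SD was 0.96 in CL-side summer, 0.20 in non-CL-side summer, 0.82 in CL-side autumn and 0.68 in non-CL-side autumn, so the groups overlapped widely. The season change was −0.43 on the CL side (−0.03 without the dim array) and 0.66 on the non-CL side (95% interval −0.52 to 1.83, limma adjusted p 1.0). The difference of these, −1.08 (SE 0.75, limma adjusted p 0.999), was not past the threshold.

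On the CL side the metallothioneins had the largest season change of the list after GPX3, and it rested on the dim array, whose cell-type markers are given above. MT1A had log2 signals of −1.12, 1.40 and −0.81 on the CL side in summer and −1.88, −0.92 and −0.77 there in autumn. On the non-CL side it had −1.63, −0.71 and −0.83 in summer and −1.72, −2.12 and −0.68 in autumn. The dim array alone was above 0, and the other 11 arrays overlapped between −2.12 and −0.68. MT2A gave the same picture, with −1.31, 1.21 and −0.90 in CL-side summer and −2.08, −1.08 and −1.03 in CL-side autumn, and −1.74, −0.86 and −0.93 then −1.80, −2.18 and −0.95 on the non-CL side. After each gene's 12-array mean was taken off, the 2 probes differed by at most 0.116 on any array.

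The CL-side change of MT1A was 1.02 (SE 0.63, 95% interval −0.39 to 2.42, limma unadjusted p 0.139, adjusted p 0.551). It was 0.23 without the dim array, 1.47 with the slide as a block and 1.70 on the first slide alone. On the non-CL side it was 0.45 (95% interval −0.95 to 1.85), 0.90 with the slide as a block and 0.67 on the first slide alone. On that slide replicate 1 is the only autumn array of each horn, at −1.88 on the CL side and −1.72 on the non-CL side. Its CL-side summer arrays include the dim array. As a fold, the CL-side interval ran from 0.764 to 5.35, so these arrays cannot tell no change from a several-fold one. The season change of MT2A was 1.07 on the CL side (0.30 without the dim array) and 0.47 on the non-CL side, with limma adjusted p of 0.523 and 1.0.

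**Figure D3:**
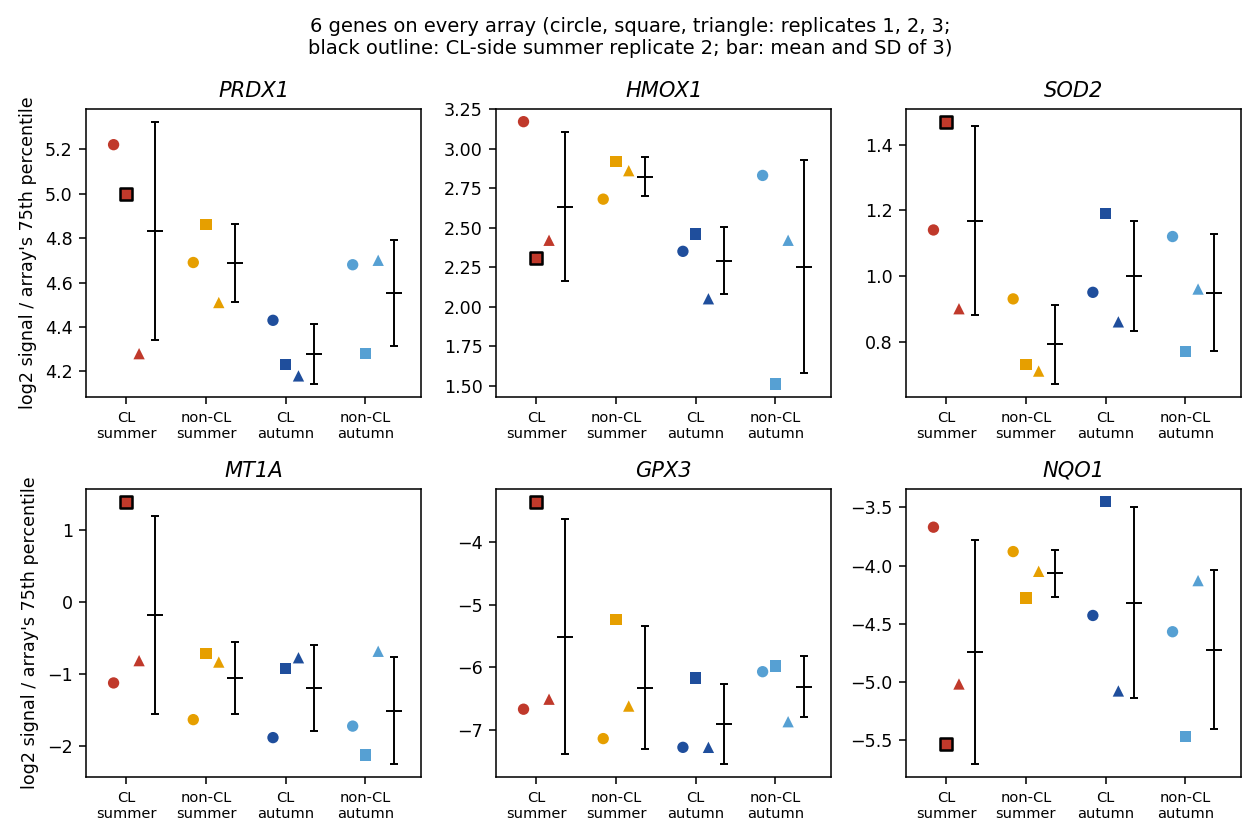
Log2 signal relative to the array's 75th percentile (y axis, own scale per gene) of 6 genes on each array, by group, with the mean and SD of 3 beside the points. In MT1A and GPX3 the outlined dim array stands far above the other 11, in PRDX1 a pair of CL-side summer arrays stands above all CL-side autumn arrays, and in HMOX1 the seasons overlap within each horn.

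Between the horns, the widest differences of the list in summer rested on the dim array. CL side minus non-CL side, they were 0.88 for MT1A (0.09 without it), 0.84 for MT2A (0.07 without it), 0.82 for GPX3 (−0.26 without it) and −0.68 for NQO1 (−0.28 without it). In autumn the widest were −0.60 for GPX3, −0.50 for SQSTM1 and −0.44 for HMOX2, and by the limma adjusted p none of these passed the threshold. In summer 19 of 28 genes were higher on the CL side (48.9% of all probes), with a median difference of 0.10 against −0.0060 over all probes, but without the dim array 15 of 28 were and the median was 0.012. In that comparison 0 of 28 genes had an unadjusted limma p under 0.05, beside 1.41% of probes, and 0 genes had horns that did not overlap (1.88% of probes higher, 1.65% lower). The 95% interval lay within −1 to 1 for 23 of 28 genes and 68.7% of probes. In autumn 12 of 28 were higher on the CL side (42.6% of probes), with a median of −0.040 against −0.037 over all probes, and 0 had an unadjusted limma p under 0.05, beside 1.86% of probes. There 22 of 28 intervals lay within −1 to 1 (70.7% of probes). By the adjusted p, 0% of probes were called in either season. Horns that did not overlap in autumn were seen for 2 of 28 genes, SQSTM1 and KEAP1, both lower on the CL side, as were 5.55% of all probes, and 0 were higher (2.35%). KEAP1 read 1.41, 1.52 and 1.55 on the CL side in autumn against 1.57, 1.56 and 1.65 on the non-CL side, a difference of −0.10 (SE 0.11, limma adjusted p 1.0). Its CL-side value was the lower in 6 of 6 same-numbered pairs, with differences of −0.16 to −0.02, as for 2% of all probes, again counted after the values were seen.

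**Figure D4:**
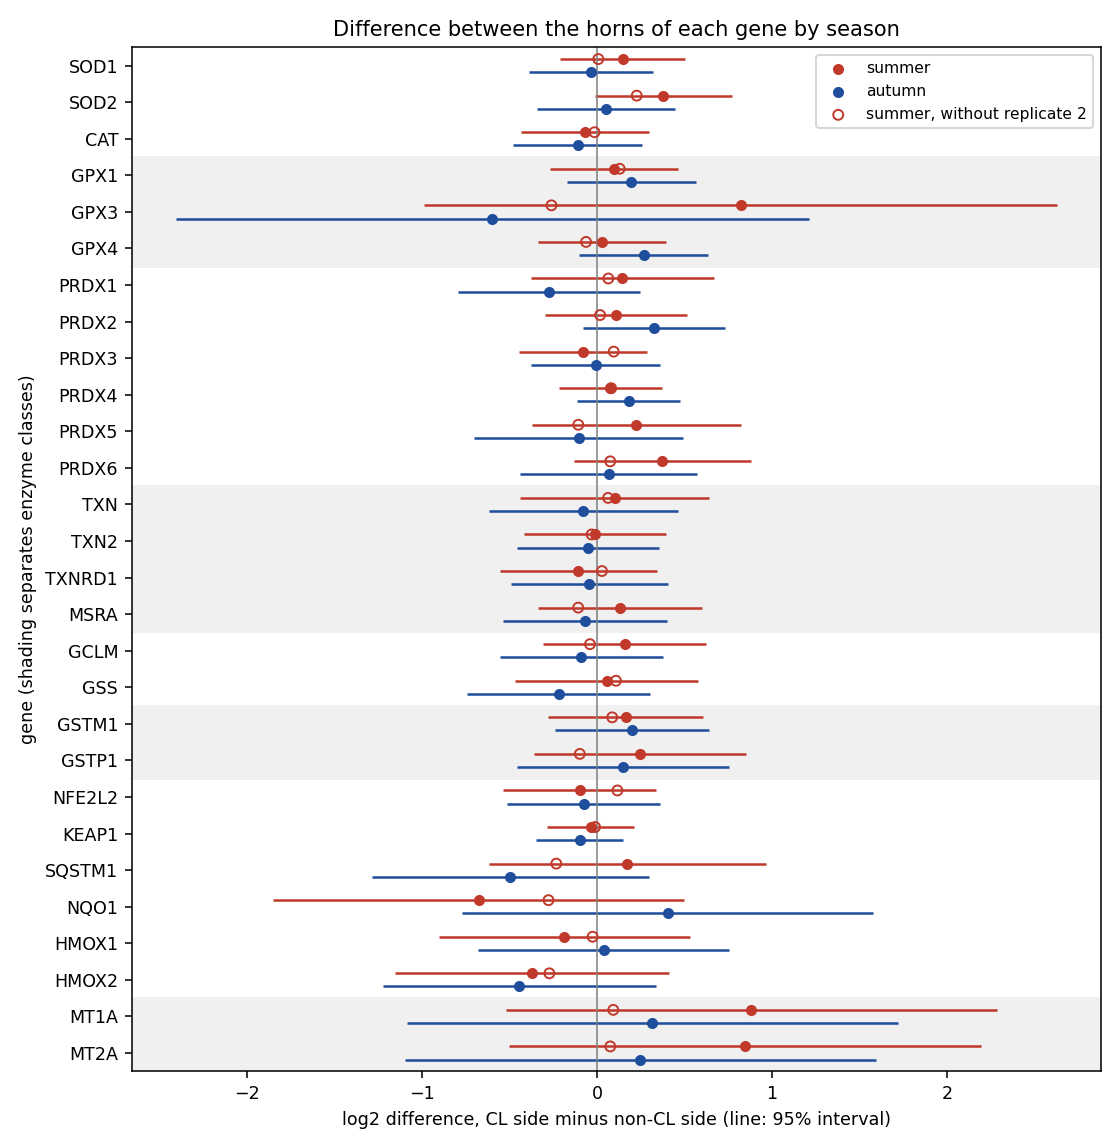
Log2 difference, CL side minus non-CL side (x axis), of each gene in summer (red) and autumn (blue), with 95% intervals from limma; open circles give the summer difference without the dim array. Every interval holds 0, SOD2 in summer being the nearest to leaving it with a lower bound of −0.02.

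The season changes of the horns were compared gene by gene. The difference, CL-side change minus non-CL-side change, was above 0 for 18 of 28 genes (53.9% of probes), with a median of 0.085 against 0.027 over all probes. Of the 28 genes 0 had an unadjusted limma p under 0.05 in this test, beside 1.88% of probes (0% by the adjusted p). Its 95% interval lay within −1 to 1 for 17 of 28 genes and 48.3% of probes. It ran from −1.08 for NQO1 to 1.42 for GPX3, and without the dim array from −0.68 for NQO1 to 0.34 for PRDX1.

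Around these enzymes, 7 further gene lists of the same pathways were read, and 0 of their genes passed the limma threshold in either horn. Of 16 other glutathione genes, 12 had a CL-side change above 0, with a median change of 0.22 that became −0.02 without the dim array. GSTA2, an alpha-class glutathione transferase, averaged −1.64 (range −2.84 to −0.54) in CL-side summer and −3.54 (range −4.05 to −2.83) in CL-side autumn, a change of 1.90 (SE 0.64, limma unadjusted p 0.013). The change was 1.34 without the dim array. GSTK1, a transferase of mitochondria and peroxisomes, changed by 0.72 (SE 0.30, limma unadjusted p 0.036), and by 0.68 without the dim array. The GSTA2 ranges just overlapped by their ends, while those of GSTK1 did not, at −3.43 to −3.15 against −4.27 to −3.60. Over all probes, 7.97% likewise did not overlap with summer higher on the CL side.

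Of 11 genes that supply NADPH, 6 were higher and 5 lower on the CL side in summer. MTHFD2, a mitochondrial folate enzyme, changed by −0.82 (SE 0.36, limma unadjusted p 0.043), and by −0.57 without the dim array. It was dim, at a mean of −6.58 in CL-side summer and −5.76 in CL-side autumn, near the floor of −7.28. Among 12 other NRF2 targets and regulators 7 were higher. CBR3, a carbonyl reductase, changed by −0.57 (SE 0.20, limma unadjusted p 0.016), and by −0.49 without the dim array. Its CL-side seasons did not overlap, at −0.71 to −0.34 in summer against −0.29 to 0.49 in autumn. The same held for 5.02% of all probes with summer lower. Of 17 genes of oxidant producers 9 were higher. RAC2, a subunit of the phagocyte NADPH oxidase, changed by 0.66 (0.43 without the dim array, SE 0.23, limma unadjusted p 0.018), beside the neutrophil and T cell markers given above, whose part was not tested. Its CL-side seasons did not overlap, at −0.66 to 0.15 in summer against −1.13 to −0.69 in autumn. The same held for 7.97% of all probes with summer higher. MAOB, a monoamine oxidase that releases hydrogen peroxide, changed by −1.17 (SE 0.45, limma unadjusted p 0.024), and by −1.04 without the dim array. It was dim too, at a mean of −6.24 in CL-side summer and −5.07 in CL-side autumn. Each of these 6 genes had a limma adjusted p of 0.496 or more. On the CL side they were the only genes of the 7 lists with an unadjusted limma p under 0.05. Over all probes 9.92% had one. The lists of thioredoxin and glutaredoxin genes, heme and iron handling, and metal binding had 5 of 16, 5 of 7 and 5 of 8 genes higher, with medians of −0.06, 0.04 and 0.04. Without the dim array these medians were −0.0047, 0.11 and 0.04, and those of NADPH supply and of NRF2 targets went from 0.07 to 0.17 and from 0.09 to 0.29. On the non-CL side 0 genes of the 7 lists had an unadjusted limma p under 0.05, beside 1.12% of all probes. The list medians there ran from −0.07 to 0.23.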

How the data were processed

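Per the file headers, the authors read each array with Agilent Feature Extraction 9.5.1.1, and the deposited processed signal is a background-subtracted spot intensity on a linear scale. A deposited table holds the authors' own log2 values, with scale and centring not stated; its columns ran in the same direction as the scanner values (r 0.962 to 0.990), had medians of −2.79 to −2.61, and served as an alternative, as did mean spot and background intensities. Here a signal was divided by the 75th percentile of its array, put on the log2 scale and floored at −7.28. Control spots were left out, 466 values flagged as outliers were set missing, and a probe was kept where some group had it well above background on each array (12404 of 15208). The number of arrays limits the precision.

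Group means were fitted over the 12 arrays together with limma 3.58.1 in R 4.3.3, two-sided, with p-values adjusted by Benjamini-Hochberg over all kept probes; same-numbered horns were averaged for the change over both horns. The script was tested on simulated data. Same-numbered arrays deviated together in every pair (correlations of 0.139 to 0.500 between the horns of a season over 6 pairs, 0.110 to 0.345 between the seasons of a horn over 6 pairs), so the titles' numbers may mark shared material, although the labels do not say what they mark. Values over all 12 arrays are given for the 10 genes with the smallest unadjusted p in any comparison and for the gene of each class with the largest SD; other genes are given by range, and from each pathway list up to 2 genes per direction with an unadjusted p under 0.05 in a season comparison. The genes and lists were chosen with earlier results of these data known. Gene names are those of the files, helped by the ARS-UCD2.0 RefSeq gene table, in which the sequences behind the GSTP1 and GSTM1 probes now carry locus names and MT1E is a synonym of MT1A. Coordinates are not used here, since no source used here gives the array's build.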

Additional observations from a re-analysis of the deposited data

How the results depend on the processing

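No gene of the list passed the adjusted limma threshold under any setting run: another background correction, quantile or median scaling, the authors' log2 values, an added offset of 0.01 before the logarithm, no filter on dim probes, the mean of a gene's probes, the slide as a block, the first slide alone, and each replicate left out. Each gene of the list has 1 probe that passes the filter. Dropping the filter or averaging probes could therefore move only the genes' p-values, not their changes. Blocking on the replicate number left 0 probes past the threshold in each comparison, and the CL-side change of PRDX1 stayed at 0.55 with a limma adjusted p of 0.462; the replicate block changed no other call. With it, 1338 probes had an unadjusted limma p under 0.05 on the CL side by season (1228 without it), 212 on the non-CL side (139), 706 over both horns (498), 422 between the horns in summer (175), 526 in autumn (230) and 548 in the comparison of the season changes (233). On the first slide alone 1 probe passed by season on the non-CL side. Leaving out 1 replicate gave 0 to 7 called probes by season on the CL side, 0 to 2 over both horns, 0 to 1 between the horns in summer, 0 to 6 in autumn and 0 to 1 in the comparison of the season changes, where fewer arrays enter; the cause was not tested. The median change of the 28 genes then ran from 0.041 to 0.20 by season on the CL side, 0.0064 to 0.11 over both horns, 0.012 to 0.22 between the horns in summer, −0.063 to 0.049 in autumn and 0.024 to 0.24 in the comparison of the season changes. CL-side summer replicate 3, left out, gave the upper end on the CL side by season, between the horns in summer and in the comparison of the season changes.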
